A study of Homo sapiens with 2 samples.

Results

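A set of 10 genes of the human pluripotency programme was followed in single cells that had been pushed towards differentiation. They were POU5F1, NANOG, PRDM14, DPPA4, L1TD1, LIN28A, ZFP42, USP44, VRTN and THY1. The genes were chosen by symbol, without SOX2, and all 10 were found among the 33538 genes counted. SOX2, a transcription factor that partners POU5F1, served as the gene against which they were compared. The cells were human embryonic stem cells (hESCs) of the established line H1, kept for 48 h in mTeSR1 medium with 50 ng/ml of bone morphogenetic protein 4 (BMP4), a signal that drives hESCs out of pluripotency. The library labelled WT came from unmodified H1 cells. The library labelled GATA3 KO came from 1 clone, KO-GATA3-06, with Cas9 aimed at GATA3, itself the gene of a transcription factor. It was derived from an H1 line with a doxycycline-inducible Cas9 cassette. Clone, cassette and genotype therefore cannot be told apart. There was 1 library per group, so no test was possible and all intervals are 95% intervals for counting error only.

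The genes lie on 8 autosomes. In GRCh38, POU5F1 (ENSG00000204531) spans 31164337 to 31180731 on chromosome 6 and NANOG (ENSG00000111704) spans 7787794 to 7799146 on chromosome 12, where USP44 (ENSG00000136014) also lies, at 95516560 to 95551476. LIN28A (ENSG00000131914) and L1TD1 (ENSG00000240563) are both on chromosome 1, at 26410817 to 26429728 and 62194849 to 62212328. DPPA4 (ENSG00000121570) spans 109326144 to 109337546 on chromosome 3 and ZFP42 (ENSG00000179059) spans 187995771 to 188005046 on chromosome 4. THY1 (ENSG00000154096) spans 119415476 to 119424985 on chromosome 11 and VRTN (ENSG00000133980) spans 74303069 to 74360008 on chromosome 14. PRDM14 (ENSG00000147596) spans 70051651 to 70071693 on chromosome 8. All are protein-coding.

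Pluripotency is held by a small set of transcription factors that sustain each other and their targets. POU5F1 (also called OCT4) and SOX2 bind DNA side by side at composite elements, and NANOG, a homeobox factor, is one of their targets. PRDM14 is a zinc-finger regulator that represses differentiation genes, DPPA4 is a chromatin-associated protein of early embryos and stem cells, and ZFP42 (REX1) is a zinc-finger protein long used as a stem cell marker. LIN28A binds RNA and blocks maturation of let-7 microRNAs, and L1TD1 is an RNA-binding protein derived from a retrotransposon. USP44 is a deubiquitinase, and THY1 (CD90) is a surface glycoprotein used to sort hESCs. VRTN (vertnin) is a nuclear protein known from its part in setting the number of vertebrae.

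A start-site sequence was matched for 5 of the 10 genes (L1TD1, DPPA4, ZFP42, NANOG and VRTN) and for SOX2 in RefSeq (GRCh38.p14), as the 250 bases before and 50 bases after the start. An octamer core (ATGCAAA), the letters bound by POU5F1, occurred on either strand in 4.46% of 35116 such promoters. A SOX element (CATTGT) occurred in 10.8% of them, and a composite of CATTGT, any base and ATGCAA in 4 of them (0.0114%). Among the 5 matched genes only NANOG held the octamer core, the SOX element and the composite. The composite shares bases with both shorter motifs and lies on the strand opposite to the gene, from position -119 to -107 counted from the start. SOX2 held an octamer core from -100 to -94. A GATA element (AGATAA) was in 10.3% of all promoters and in 0 of the 5. The stretches from -150 to -51 are given because they hold these matches. Neither overlaps an annotated exon, both are on the plus strand, and capitals mark the octamer and SOX letters. A match is a description of letters and was not tested as a binding site.
NANOG, chr12:7789252-7789351: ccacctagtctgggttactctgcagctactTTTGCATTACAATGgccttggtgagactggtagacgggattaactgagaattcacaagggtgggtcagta
SOX2, chr3:181711775-181711874: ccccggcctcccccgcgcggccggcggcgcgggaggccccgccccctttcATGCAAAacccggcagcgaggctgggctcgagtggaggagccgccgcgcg

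The 2 libraries were deep. After cells of more than 7500 detected genes or more than 25% mitochondrial counts had been removed, 2519 cells labelled WT and 4450 cells labelled GATA3 KO were kept. These held 99587274 and 175285931 unique molecular identifiers (UMIs, each 1 captured transcript), with medians of 44415 and 43131.5 per cell. Only 8 cell barcodes occurred in both libraries. The GATA3 transcript was at 12.7 counts per 1000000 UMIs (CPM) and 10.9 CPM, so its level does not check the labels, and every direction below is that of the labels.

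In the library labelled GATA3 KO, 8 of the 10 genes were higher and 2 lower than in WT. The median log2 ratio of GATA3 KO over WT (on CPM plus 1) was 0.54, whereas the median of the 5529 genes that reached 20 CPM in either library was 0.07, and 55.5% of those 5529 lay above 0. Genes higher by at least 1.5-fold made up 13.5% of the 5529, and 4 of the 9 pluripotency genes above 20 CPM were among them (POU5F1, USP44, VRTN and THY1). Genes lower by at least 1.5-fold made up 7.85%, with 0 of the 9. At 2-fold the shares were 2.41% higher, with 1 of the 9 (THY1), and 1.99% lower, with 0. PRDM14 stayed below 20 CPM in both libraries and is not in these counts. For SOX2 the log2 ratio was 1.37 (1.35 to 1.40), higher than in 99.5% of the 5529.

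**Figure D1:**
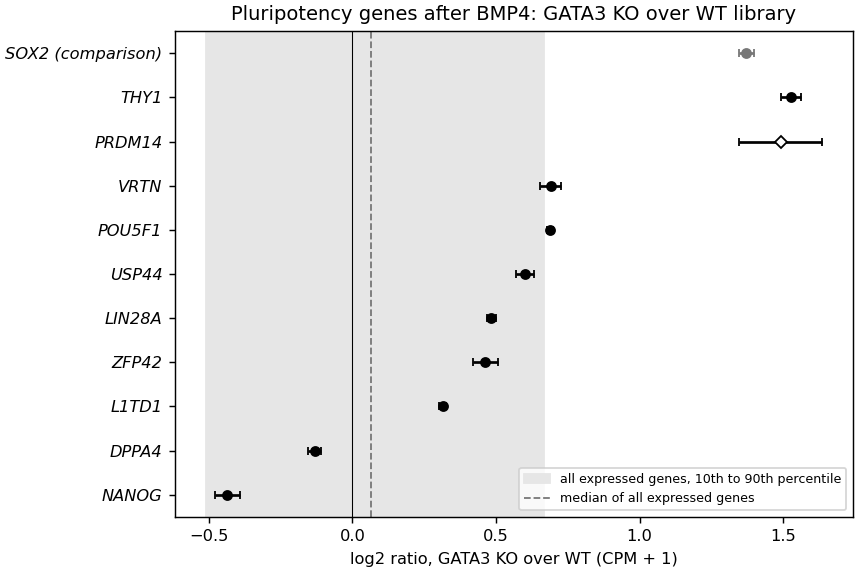
Log2 ratio of GATA3 KO over WT (CPM plus 1, x axis) for each gene, with 95% counting intervals; the shaded band runs from the 10th to the 90th percentile of all 5529 expressed genes (-0.51 to 0.67) and the dashed line is their median. THY1 and PRDM14 (open symbol, below 20 CPM) stand beside SOX2 near 1.5, POU5F1 and VRTN at the edge of the band, and NANOG and DPPA4 below 0.

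Among the transcription factors, POU5F1 and NANOG went in opposite directions. POU5F1 was at 918 CPM in WT and 1480.1 CPM in GATA3 KO, a log2 ratio of 0.69 (0.68 to 0.70). NANOG was at 75.6 CPM and 55.7 CPM, a log2 ratio of -0.44 (-0.48 to -0.39), lower than all but 13.0% of the expressed genes. PRDM14 was counted 261 times in WT, at 2.62 CPM (2.31 to 2.96), and 1609 times in GATA3 KO, at 9.18 CPM (8.74 to 9.64). Its log2 ratio was 1.49 (1.35 to 1.63) with 1 CPM added to each level and 1.77 with 0.1 CPM added, since a pseudocount shrinks the ratio of a scarce transcript. ZFP42 was at 60.9 CPM (59.4 to 62.4) in WT against 84.3 CPM (82.9 to 85.7) in GATA3 KO, and the ratio on the log2 scale was 0.46 (0.42 to 0.51).

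DPPA4 and USP44, a chromatin protein and a deubiquitinase, also differed in direction. DPPA4 was at 270.4 CPM (267.2 to 273.7) in WT against 246.8 CPM (244.4 to 249.1) in GATA3 KO, and the ratio on the log2 scale was -0.13 (-0.15 to -0.11). It was thus a little lower in the library in which SOX2 was more than 2-fold higher. USP44 stood at 104 CPM (102 to 106) in WT against 158 CPM (157 to 160.2) in GATA3 KO, and the ratio on the log2 scale was 0.60 (0.57 to 0.63). After cells had been brought to equal depth the ratio of USP44 was 0.57, just under 1.5-fold.

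Both RNA-binding proteins were higher in GATA3 KO. LIN28A was at 393 CPM (389 to 397) in WT against 550.1 CPM (547 to 554) in GATA3 KO, and the ratio on the log2 scale was 0.48 (0.47 to 0.50). L1TD1 was at 940.2 CPM (934 to 946) in WT against 1169 CPM (1164 to 1174) in GATA3 KO, and the ratio on the log2 scale was 0.31 (0.30 to 0.33).

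The surface marker THY1 had the largest ratio of the 9 genes above 20 CPM. The ratio of PRDM14, which is below that level, was smaller or larger than that of THY1 depending on the processing. THY1 was at 73.8 CPM (72.1 to 75.5) in WT against 214 CPM (212 to 217) in GATA3 KO, and the ratio on the log2 scale was 1.53 (1.49 to 1.56). Of the expressed genes, 99.7% had a smaller ratio. VRTN was at 79.4 CPM (77.7 to 81.2) in WT against 128.8 CPM (127.2 to 130.5) in GATA3 KO, and the ratio on the log2 scale was 0.69 (0.65 to 0.73). Its ratio nearly equalled that of POU5F1.

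To see whether these levels were shared by all cells or carried by some, cells were brought to equal depth. Each kept cell of at least 10000 UMIs was thinned at random to 10000 UMIs, which left 2173 cells labelled WT and 4038 labelled GATA3 KO. POU5F1 was detected in 99.8% of cells in each library, with a median of 9 UMIs (10th to 90th percentile 5 to 14) in WT and 15 (9 to 21) in GATA3 KO. The upper part of the WT range and the lower part of the GATA3 KO range overlapped. L1TD1 was likewise detected in 99.5% of cells in both, with medians of 8 (3 to 17) and 11 (4 to 20). LIN28A was found in 94.6% and 98.6% of cells and DPPA4 in 88.2% and 87.6%.

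The other 6 genes were each missing from a large share of cells at this depth. NANOG was detected in 48.3% (46.2 to 50.4) of cells labelled WT and 38.1% (36.6 to 39.6) labelled GATA3 KO. THY1 was detected in 48.0% (45.9 to 50.1) and 77.4% (76.1 to 78.7), and 2 or more UMIs of it were found in 16.3% and 54.2%. USP44 was found in 54.8% and 70.4% of cells, VRTN in 51.7% and 68.1%, and ZFP42 in 44.96% and 55.92%. PRDM14 was found in 2.39% (1.79 to 3.13) and 9.11% (8.24 to 10.0), with at most 3 UMIs in any cell. Without thinning, over all kept cells, these shares were 74.6% and 70.2% for NANOG, 77.8% and 88.9% for THY1 and 9.01% and 26.2% for PRDM14. A cell without a UMI of a gene may still transcribe it. No group of cells here is known to lack these genes, so a background share from free RNA could not be measured on such a group.

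**Figure D2:**
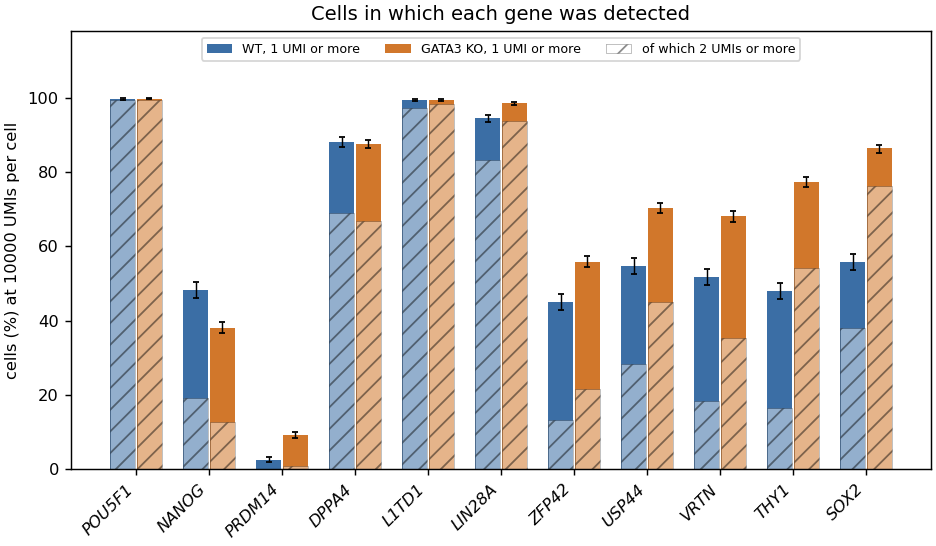
Share of cells (%, y axis) with at least 1 UMI of each gene after thinning to 10000 UMIs per cell, in WT (blue, 2173 cells) and GATA3 KO (orange, 4038 cells), with 95% Clopper-Pearson intervals; hatched parts are cells with 2 or more UMIs. POU5F1, L1TD1, LIN28A and DPPA4 were found in most cells of both libraries, NANOG in fewer cells of GATA3 KO, and THY1, VRTN, USP44, ZFP42 and PRDM14 in more.

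A cell labelled WT held a median of 6 of the 10 genes and a cell labelled GATA3 KO a median of 7. All 10 were seen together in 3 and 41 cells, and no cell had fewer than 2. The variance of L1TD1 was 3.35 times its mean in WT and 3.61 times in GATA3 KO, and that of SOX2 was 2.42 and 2.26 times. At the same relative spread this ratio is higher for a gene with a higher mean, so the spread left after counting error was also taken as a share of the mean. On that scale L1TD1 was at 0.50 and 0.47, NANOG at 0.66 and 0.77, USP44 at 0.79 and 0.57, and SOX2 at 0.96 and 0.57. PRDM14 was at 1.41 and 0.85, from few UMIs. POU5F1 was the most even of the 10 genes, at 0.25 and 0.19. Its mean was 9.23 UMIs in WT and 14.9 in GATA3 KO, and its 10th, 50th and 90th percentiles were all higher in GATA3 KO. THY1 was at 0.53 and 0.60.

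The genes were only loosely coupled from cell to cell. Over the 45 pairs the median Spearman rho across thinned cells was 0.07 in WT (range -0.01 to 0.32) and 0.08 in GATA3 KO (-0.04 to 0.27). At 20000 UMIs per cell both medians were 0.10, so the medians are higher where more UMIs are counted. Points of such a correlation are cells of 1 library and no p is attached to it. In WT the pairs with the highest values were LIN28A and USP44 (0.32, and 0.18 in GATA3 KO) and DPPA4 and USP44 (0.31), and DPPA4 and USP44 was the highest pair in GATA3 KO (0.27). L1TD1 was at 0.26 and 0.22 with DPPA4 and at 0.24 and 0.24 with USP44. POU5F1 and NANOG were at 0.15 in each library. In GATA3 KO, THY1 was at 0.23 with L1TD1, 0.22 with DPPA4, 0.21 with USP44 and 0.20 with NANOG, against 0.15, 0.11, 0.11 and 0.10 in WT. The values of single pairs also depended on depth. With 20000 UMIs per cell, POU5F1 and NANOG were no longer equal, at 0.31 in WT and 0.20 in GATA3 KO. LIN28A and USP44 were then at 0.43 and 0.26, and DPPA4 and USP44 at 0.45 and 0.36. Some pairs did not rise, such as NANOG and LIN28A in WT (0.08, and 0.04 at 20000 UMIs).

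**Figure D3:**
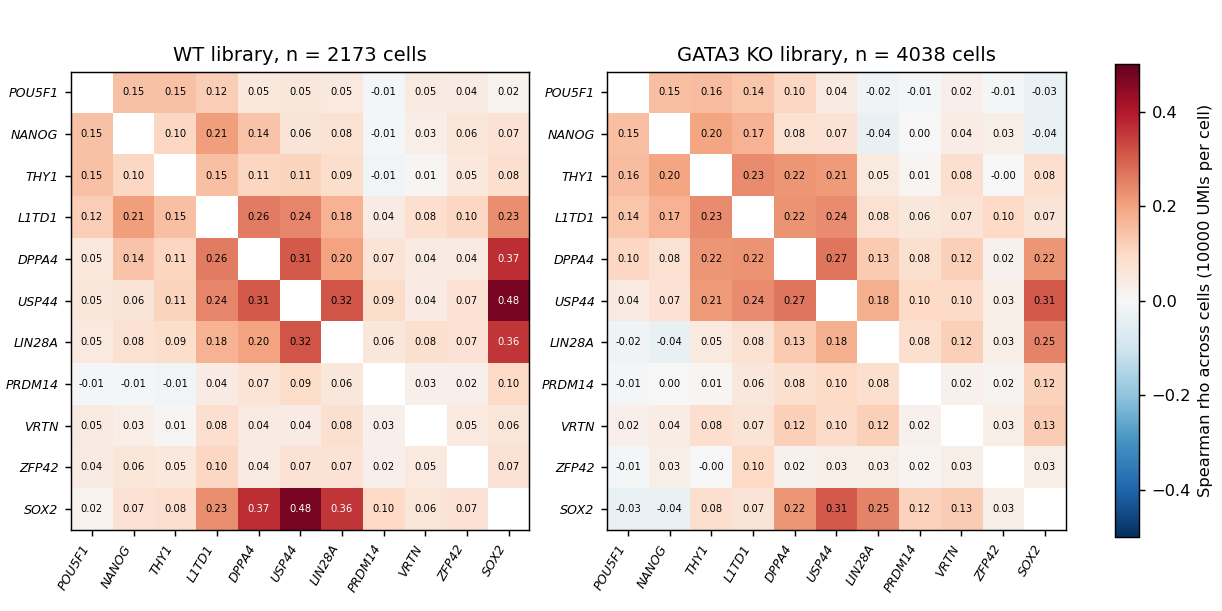
Spearman rho across cells between each pair of the 10 genes and SOX2, in WT (left, 2173 cells) and GATA3 KO (right, 4038 cells), each cell thinned to 10000 UMIs; red is positive, blue negative, and the value is written in each square. USP44, DPPA4 and LIN28A have the highest values with SOX2 in both libraries, and POU5F1, NANOG and ZFP42 stay between -0.04 and 0.07 with it.

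Coupling to SOX2 split the genes more sharply than coupling to each other. In WT, rho with SOX2 was 0.48 for USP44, 0.37 for DPPA4, 0.36 for LIN28A and 0.23 for L1TD1. In GATA3 KO the same values were 0.31, 0.22, 0.25 and 0.07. Of 5528 other expressed genes, 0.0543% had a higher rho with SOX2 than USP44 in WT and 0.127% in GATA3 KO, and the median gene was at 0.01 in each. At the other end, POU5F1, the binding partner of SOX2, was at 0.02 in WT and -0.03 in GATA3 KO. NANOG was at 0.07 and -0.04, and ZFP42 at 0.07 and 0.03. THY1 was at 0.08 in both, VRTN at 0.06 and 0.13, and PRDM14 at 0.10 and 0.12. Of the 5528 genes, 8.29% in WT and 3.27% in GATA3 KO had a higher rho with SOX2 than PRDM14. The shares were 19.1% and 2.57% for VRTN, 11.2% and 6.64% for THY1, and 46.1% and 81.0% for POU5F1. For NANOG they were 14.7% and 82.6%, and for ZFP42 14.4% and 28.2%. PRDM14 was detected in 2.39% and 9.11% of thinned cells, and rho is held down where most cells tie at 0.

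The genes most like each member over cells were then listed, where the weaker rho of the 2 libraries was at least 0.25 in size. USP44 was accompanied by TERF1, a telomere-binding protein (0.55 in WT, 0.37 in GATA3 KO), SFRP1, a secreted WNT antagonist (0.45 and 0.33), and CD24, a surface glycoprotein (0.47 and 0.33). SOX2 itself was accompanied by SFRP1 (0.54 and 0.48) and TERF1 (0.63 and 0.45). DPPA4 went with TERF1 (0.43 and 0.29), the NODAL co-receptor TDGF1 (0.27 and 0.27) and the DNA methyltransferase DNMT3B (0.30 and 0.25). LIN28A went with SFRP1 (0.38 and 0.34). WLS, which carries WNT ligands to the cell surface, was low where USP44 (-0.36 and -0.37), DPPA4 (-0.33 and -0.30) and LIN28A (-0.27 and -0.26) were high. HPGD, a prostaglandin-degrading enzyme, behaved alike for USP44 (-0.35 and -0.39) and DPPA4 (-0.30 and -0.31). L1TD1 had other companions, the nucleolar protein NCL (0.49 and 0.55), HNRNPU (0.38 and 0.41) and EIF3A (0.37 and 0.41). No gene passed the limit for POU5F1, NANOG, PRDM14, ZFP42, VRTN or THY1. Low counts hold rho down, and NANOG, PRDM14, ZFP42, VRTN and THY1 had means of at most 2.11 UMIs per thinned cell. USP44 passed the limit at means of 1.08 UMIs in WT and 1.61 in GATA3 KO. A miss therefore does not show that a gene lacks companions.

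**Figure D4:**
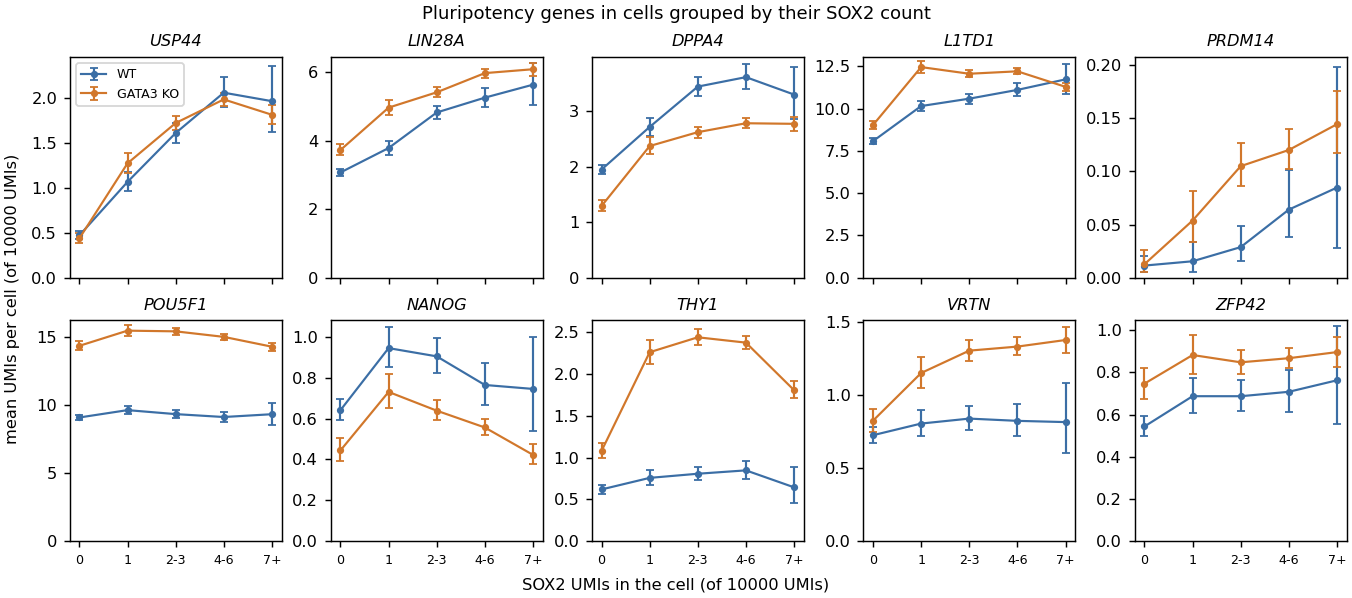
Mean UMIs per cell (y axis, starting at 0, of 10000 UMIs) of each gene in cells grouped by their own SOX2 count (x axis), in WT (blue) and GATA3 KO (orange), with 95% Poisson intervals. The 2 lines of USP44 lie close together, with GATA3 KO higher at 1 SOX2 UMI. Those of POU5F1 are flat and apart, and DPPA4 and NANOG are lower in GATA3 KO at every SOX2 count.

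Cells were next grouped by their SOX2 count, so that the libraries could be compared at similar SOX2 counts. The groups do not fix the SOX2 level, since few UMIs are counted per cell and some groups span a range. Over a wider range, 4 or more SOX2 UMIs in marker-free cells (defined below), SOX2 means were 5.21 in WT and 6.20 in GATA3 KO. USP44 followed the SOX2 count along similar curves in both libraries. In cells with 0, 1, 2 to 3, 4 to 6 and 7 or more SOX2 UMIs its mean was 0.472, 1.07, 1.61, 2.06 and 1.97 UMIs in WT. In GATA3 KO the means were 0.439, 1.27, 1.72, 1.99 and 1.81. The log2 ratio between libraries within these 5 groups lay between -0.12 and 0.26, and its interval left out 0 in 1 of them, the cells with 1 SOX2 UMI.

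DPPA4 also climbed with SOX2 but on a lower curve in GATA3 KO. Its means were 1.95, 2.72, 3.45, 3.62 and 3.31 UMIs in WT and 1.30, 2.38, 2.63, 2.79 and 2.78 in GATA3 KO. All 5 ratios were below 0 (-0.59 to -0.20) with intervals that left out 0. LIN28A climbed from 3.07 to 5.63 UMIs in WT and from 3.72 to 6.08 in GATA3 KO. PRDM14 was lowest in cells without SOX2, at 0.0115 UMIs in WT and 0.0128 in GATA3 KO, and highest in cells with 7 or more, at 0.0847 and 0.144.

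POU5F1 did not follow SOX2. Across the 5 groups its mean stayed between 9.07 and 9.60 UMIs in WT and between 14.3 and 15.4 in GATA3 KO. The log2 ratio between libraries was 0.62 to 0.72 in every group, including cells in which no SOX2 was counted (0.66, interval 0.62 to 0.70). ZFP42 changed little along SOX2 in either library, from 0.544 to 0.763 UMIs in WT and from 0.747 to 0.897 in GATA3 KO.

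Over all thinned cells, NANOG had its highest mean at 1 SOX2 UMI. In WT its mean was 0.642 UMIs (0.592 to 0.694) in cells without SOX2, 0.946 (0.851 to 1.05) in cells with 1 SOX2 UMI, then 0.905, 0.765 and 0.746. In GATA3 KO it was 0.444, 0.731, 0.639, 0.557 and 0.423. A single rank correlation does not show such a peak. In each of the 5 groups NANOG was lower in GATA3 KO, by -0.82 to -0.37 on the log2 scale. THY1 had a similar shape in GATA3 KO, from 1.08 UMIs without SOX2 to 2.44 at 2 to 3 SOX2 UMIs and 1.81 at 7 or more, while in WT it stayed between 0.619 and 0.847. VRTN was level in WT (0.724 to 0.837 UMIs) and climbed with SOX2 in GATA3 KO (0.823 to 1.37). The 5 groups include cells with lineage markers. In marker-free cells with 0, 1 to 3 and 4 or more SOX2 UMIs, NANOG was at 0.692, 0.908 and 0.750 in WT. In GATA3 KO it was at 0.663, 0.668 and 0.513, so a clear rise from 0 SOX2 UMIs was seen only in WT. At 0 SOX2 UMIs its log2 ratio in marker-free cells was -0.06 (-0.35 to 0.23).

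Lineage markers gave a second way to group cells before comparing the libraries. Thinned cells with at least 2 UMIs over MIXL1, EOMES and TBXT, which mark the primitive streak, formed the streak-marker group, with 664 cells in WT and 63 in GATA3 KO. Those with at least 2 UMIs over TFAP2A, HAND1 and ISL1, factors of amnion and other extraembryonic or surface cells, formed the amnion-marker group, with 101 and 419. A further 28 and 9 cells passed both limits. The rest were divided by SOX2 into 0 UMIs (360 and 255 cells), 1 to 3 (692 and 1267) and 4 or more (328 and 2025). None of the 10 genes was used to form the groups. Cells of the same group still differed in SOX2 between the libraries. Its mean was 0.449 UMIs in WT and 1.21 in GATA3 KO in streak-marker cells, and 0.0792 and 0.852 in amnion-marker cells. Median depth before thinning was between 43789 and 52159 UMIs in all groups.

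Amnion-marker cells had the lowest means of most pluripotency genes, but not of all. USP44 was at 0.109 UMIs in WT and 0.255 in GATA3 KO there. It was lower still, at 0.0714 and 0.222 (2 UMIs in each library), in the 28 and 9 cells with both marker sets. In amnion-marker cells NANOG was at 0.257 and 0.265 UMIs and DPPA4 at 0.970 and 1.07. PRDM14 was counted in 0 of 101 such cells of WT, which allows up to 2.97% of such cells to hold a UMI (3 of 101) and does not limit how many express the gene, and in 1.67% of 419 such cells of GATA3 KO. POU5F1 was still at 8.06 UMIs in WT and 12.8 in GATA3 KO, where the other groups ranged from 8.07 to 9.73 and from 14.8 to 16.8. ZFP42 was at 0.545 and 0.807. Streak-marker cells kept NANOG at 0.785 UMIs in WT and 1.24 in GATA3 KO, with POU5F1 at 9.07 and 16.8.

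**Figure D5:**
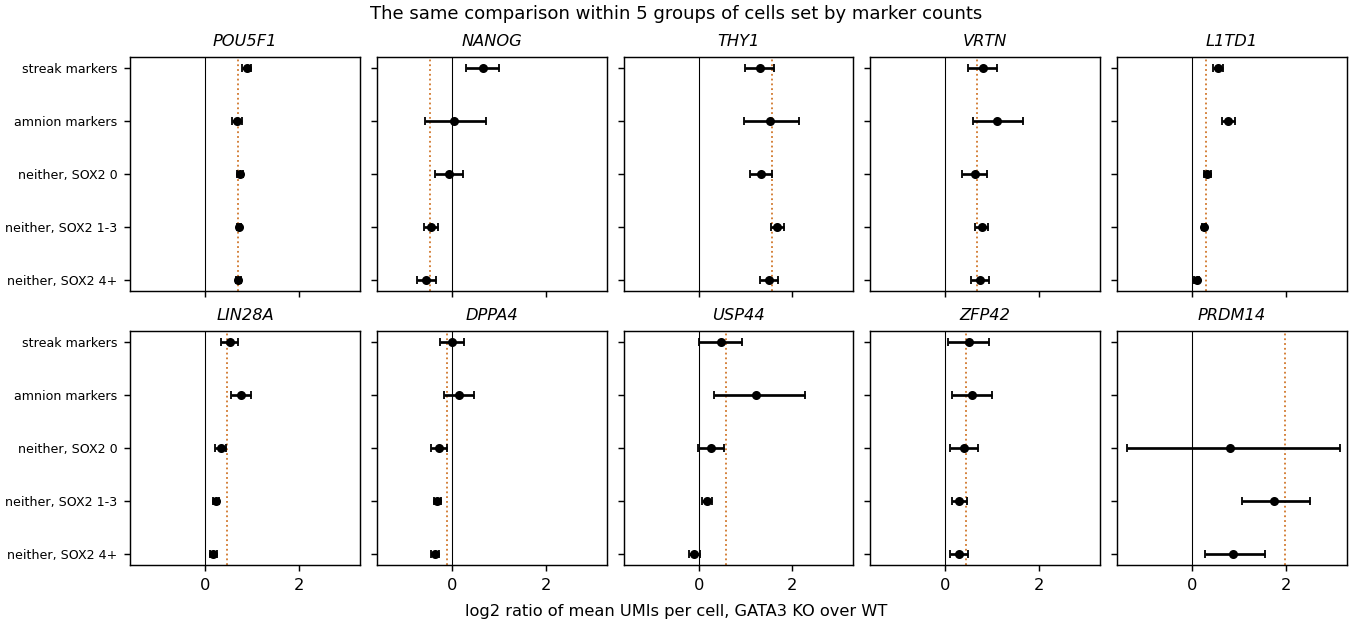
Log2 ratio of mean UMIs per thinned cell, GATA3 KO over WT (x axis), within 5 groups of cells set by marker counts (y axis), with 95% intervals; dotted lines give the ratio over all thinned cells, and ratios with 3 or fewer UMIs in a library and the small group with both marker sets are left out. POU5F1, THY1 and VRTN are above 0 in all 5 groups, whereas NANOG is above 0 in streak-marker cells and below 0 in cells with SOX2.

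Within these marker groups, some genes had the same direction in every group and others did not. POU5F1 was higher in GATA3 KO in 6 of 6 groups, with log2 ratios of 0.67 to 0.98 and every interval above 0. THY1 was higher in 6 of 6 (1.31 to 1.75), and VRTN in 6 of 6 (0.63 to 1.11). By SOX2 count alone the size varied more for both. THY1 was at 0.80 (0.64 to 0.97) without SOX2 and 1.60 (1.44 to 1.75) at 2 to 3 SOX2 UMIs, and VRTN at 0.19 (0.01 to 0.36) without SOX2 and 0.69 (0.50 to 0.90) at 4 to 6. L1TD1 was higher in 6 of 6, from 0.10 (0.05 to 0.15) in cells with 4 or more SOX2 UMIs to 0.77 (0.63 to 0.91) in amnion-marker cells and 0.96 (0.59 to 1.32) in the 28 and 9 cells with both marker sets. LIN28A was higher in 6 of 6 as well (0.17 to 0.76), and ZFP42 in 5 of 6.

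NANOG pointed 2 ways. In streak-marker cells its log2 ratio was 0.66 (0.30 to 1.00), and in cells with 4 or more SOX2 UMIs and no marker it was -0.55 (-0.75 to -0.34). Without markers it was -0.44 (-0.59 to -0.29) at 1 to 3 SOX2 UMIs and -0.06 (-0.35 to 0.23) at 0. In amnion-marker cells it was 0.04 (-0.59 to 0.72). The streak-marker value rests on 63 cells of GATA3 KO, and with 1 marker UMI as the limit it was 0.41. DPPA4 was near 0 in streak-marker cells (0.00, -0.26 to 0.25) and below 0 in the 3 groups without markers (-0.36 to -0.28). USP44 ranged from -0.09 (-0.21 to 0.02) in cells with 4 or more SOX2 UMIs to 1.23 (0.33 to 2.27) in amnion-marker cells.

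The shares of the groups differ between the libraries, so the ratios were recomputed with the shares held equal. For POU5F1 the ratio over all thinned cells was 0.69. It was 0.77 with both libraries at the group shares of WT and 0.71 at those of GATA3 KO. THY1 was likewise at 1.56, 1.49 and 1.55, and VRTN at 0.68, 0.77 and 0.77. For USP44 the ratio went from 0.58 to 0.17 and 0.02. With 1 marker UMI as the limit for a group it was 0.40 at WT shares and 0.06 at GATA3 KO shares, so how much of it was left depended on the limit and the shares. LIN28A went from 0.47 to 0.33 and 0.24, and DPPA4 from -0.10 to -0.22 and -0.32. NANOG went from -0.47 to 0.05 at WT shares and -0.42 at GATA3 KO shares, so its difference between the libraries depended on which mixture of cells was weighted. At WT shares the 63 streak-marker cells of GATA3 KO, 1.56% of its thinned cells, were weighted at 30.6%. The value of 0.05 thus leans on few cells, and no interval was computed for it. With 1 marker UMI as the limit it was 0.06.

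Other genes of the pluripotency programme were read from 2 lists. Of 24 genes of the primed state, the state of conventional hESCs, 23 were found and 17 reached 20 CPM. Of these 17, 4 were higher by at least 1.5-fold, 1 was lower and 12 lay between, with a median log2 ratio of 0.29. Over all 5529 genes 13.5% were higher and 7.85% lower at this limit, and the median was 0.07. UTF1, a chromatin-associated factor, went from 9.56 to 26.8 CPM (1.40), LNCPRESS1, a long non-coding RNA, from 17.1 to 46.0 CPM (1.38), and OTX2, a homeobox factor, from 11.9 to 29.0 CPM (1.22). SALL2, a zinc-finger factor, went from 38.7 to 70.6 CPM (0.85). GDF3, a TGF-beta family ligand whose gene lies beside NANOG on chromosome 12, went from 25 to 11.7 CPM (-1.03). Of 12 genes of the naive state, found in ground-state cultures and the early epiblast, none reached 20 CPM. Their summed level was 17.5 CPM in WT and 18.3 CPM in GATA3 KO, and KLF17 had 0 UMIs in both. TBX3, named after its value was seen, made up 8.62 and 11.6 CPM of these sums. The median log2 ratio of the naive list was -0.03.

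Marker lists of other cell types were read as well, and they differed in direction between the libraries. The summed level of 6 streak genes was 318 CPM in WT and 13.4 CPM in GATA3 KO, with GATA3 KO lower for each of the 4 that reached 20 CPM. For 6 neural ectoderm genes it was 38.3 and 94.1 CPM, for 8 amnion and trophectoderm genes 61.3 and 84.6 CPM, and for 4 endoderm genes 20.9 and 0.559 CPM. Single genes, named here after their values were seen, carried much of these sums. IRX2 made up 35.98 and 87.57 CPM of the neural sums, with PAX6 at 0.0803 and 0.154 CPM and SOX1 at 0.0301 and 0.0399 CPM. In the amnion and trophectoderm list the median log2 ratio was 0.09. TFAP2A went from 16.7 to 37.7 CPM and GATA2 from 2.02 to 7.75 CPM, whereas ISL1 (-0.60), GATA3 (-0.19) and TFAP2C (-0.19) were lower on the log2 scale. Genes of blood and endothelium summed to 0.412 and 0.165 CPM, and 4 fibroblast genes, which include collagens that other cells also use, to 81.2 and 82.5 CPM, with DCN and LUM at 3 UMIs or fewer. The part of these cell types in the ratios of the 10 genes was not tested beyond the group comparisons above.

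Cells removed by the limits showed the same directions with 1 exception. In cells of more than 25% mitochondrial counts (271 and 506 cells) every one of the 10 genes was at a lower CPM than in kept cells of the same library, for example POU5F1 at 464 CPM in WT and 724 CPM in GATA3 KO. The CPM total includes mitochondrial UMIs, so the choice of such cells by itself lowers the CPM of other genes. In these cells the log2 ratio of DPPA4 was 0.20, against -0.13 in kept cells. In cells of more than 7500 genes (1012 and 1265 cells) ZFP42 was at 72.0 and 80.0 CPM, a log2 ratio of 0.15 against 0.46, and NANOG was at 94.1 and 60.9 CPM, a log2 ratio of -0.62. Median depth in those cells was 87070.5 and 80099 UMIs.

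Some counts may be affected by copies of a gene. POU5F1 has 7 named copies, of which POU5F1B was counted, at 15.1 CPM in WT and 10.0 CPM in GATA3 KO, a log2 ratio of -0.54 and so opposite to POU5F1. NANOG has 11 named copies, of which NANOGP8 (0.723 and 0.365 CPM) and NANOGP11 (1 and 0 UMIs) were counted. TCF19 overlaps POU5F1 on the opposite strand and was at 5.40 and 6.17 CPM. USP2-AS1 overlaps THY1 on the opposite strand and was at 1.12 and 0.924 CPM. DPPA4 and LIN28A have 2 named copies each, none of which was counted. Counts of POU5F1, NANOG, DPPA4 and LIN28A are uncertain to the extent that reads also match such copies, which was not measured.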

How the data were processed

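The authors made 10x Genomics 3′ v3 libraries and counted UMIs per gene and cell with Cell Ranger 3.0.2 on GRCh38; the deposited values are raw counts. The protocol text of the library labelled WT states an exposure of 1 h, while its title and duration state 48 h, which was used. Cells over 7500 genes or over 25% mitochondrial counts were removed, after the methods of the study. Doublets were not called; removing the cells with the highest totals, at 0.8% per 1000 cells, took none of the kept cells. Counts were summed per library and given as CPM. Ratio intervals used the exact binomial share of the GATA3 KO count in both counts, shares carry Clopper-Pearson intervals and means Poisson intervals. Cells are not replicates, so no test was made. Thinning to 10000 UMIs left out 346 and 412 cells. Scripts ran in Python with numpy and scipy, and edgeR 4.0.16 gave TMM factors; they were tested on simulated data. Positions and exons came from GENCODE, promoters from RefSeq. Besides the 10 genes and SOX2, genes were named where the weaker rho of the 2 libraries reached 0.25 (up to 3 alike and 3 opposite per gene), or from the 2 pluripotency lists where past 1.5-fold. The genes and lists were chosen with earlier results of these data known. Alternatives were the pseudocount, cell limits, scaling, depth, correlation measure and marker limit.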

Additional observations from a re-analysis of the deposited data

How the results depend on the processing

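Of 70 log2 ratios of the 10 genes under 7 alternatives, 70 had the direction given above. For DPPA4 the direction was barely kept as a mean of per-cell CPM, at -0.015 in place of -0.13. The removal of the cells with the highest totals takes no kept cell and is not counted. The number of genes higher in GATA3 KO was 8 under each of the 7. PRDM14 had a larger ratio than THY1 with 0.1 CPM added (1.77 and 1.54), in thinned cells (1.65 and 1.55) and, narrowly, over all deposited cells and without the limit on detected genes. The number higher by at least 1.5-fold, counting PRDM14, was 5 except 4 in cells thinned to 10000 UMIs, where USP44 was at 0.57. The median log2 ratio, 0.54, was 0.49 over all deposited cells, 0.49 without the limit on detected genes, 0.58 as a mean of per-cell CPM and 0.52 in thinned cells. At 1 marker UMI in place of 2, the median at equal group shares was 0.41 in place of 0.37 (shares of WT) and 0.33 in place of 0.28 (shares of GATA3 KO). The causes were not tested. The median rho was 0.07 to 0.10 in WT and 0.07 to 0.10 in GATA3 KO under all alternatives run. No paired analysis was possible because each group has 1 library. Limits: a clone stands for a genotype, 3′ counts do not measure protein, low counts limit PRDM14 and groups of few cells, and counting intervals leave out the spread between cultures.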

Other observations

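Genes near the members on the chromosome were read after the ratios were known. Of 33 expressed genes within 2 Mb of POU5F1, 28 were higher in GATA3 KO, with a median log2 ratio of 0.50, while the median of 267 expressed genes of chromosome 6 was -0.01. Around THY1, 14 of 18 genes were higher, with a median of 0.42, against 0.17 for chromosome 11. Around NANOG, 18 of 24 were higher, with a median of 0.24, although NANOG was lower. Its nearest expressed neighbours on each side, GDF3 and the glucose transporter gene SLC2A3, the latter named after its value was seen, were lower as well (-1.03 and -0.61). For PRDM14 the figure was 0 of 4, for USP44 2 of 7 and for L1TD1 2 of 7, with medians of -0.37, -0.05 and -0.38, so these genes were higher while most genes around them were not. Whether neighbouring genes and the members share a cause was not tested.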
